A study of Bos taurus with 16 samples.

Results

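Oxidative phosphorylation is carried out by proteins that are mostly encoded in the nucleus. The genes described here are the rows whose name marks a nuclear subunit of complex I (NDUFA, NDUFB, NDUFC, NDUFS and NDUFV names), complex III (UQCR names and CYC1), cytochrome c (CYCS), complex IV (COX4 to COX8 names) or complex V (ATP5 names). The rule uses names only and no measured value. It found 77 loci under 76 names among the 22358 loci of the count tables, with each locus entered once. Complex I accounts for 35 of them, complex III for 9, cytochrome c for 1, complex IV for 15 and complex V for 17. Among these, 3 names are not subunits of the mature complexes: COX4NB, a component of a membrane protein insertion complex, and ATP5S and ATP5SL, names that follow those of complex V. They are kept in the counts of genes and left out of the sums by complex. NDUFA4 and its relative NDUFA4L2 are listed with complex I by name, although NDUFA4 is now placed with complex IV.

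In the inner mitochondrial membrane, complex I takes electrons from NADH and passes them to ubiquinone, complex III passes them to cytochrome c, and complex IV hands them to oxygen. The protons pumped along the way return through complex V, the ATP synthase, which uses their flow to make ATP. In mammalian embryos the mitochondria come from the oocyte, and ATP use rises as the blastocyst forms and its trophectoderm pumps fluid into the cavity.

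RNA came from 16 pools of Holstein blastocysts, 2 pools from each of 8 cows. By the study's own listing, C4.1, C4.2 and M8.2 were single blastocysts and each other pool held more, with more embryos per pool on average in the methionine-rich group. The listing also gives an RNA quality number, which was lowest in M7.1, M5.2 and M5.1 and not available for C2.2 and C4.2. The part of embryo number or RNA quality in any difference between pools or diets was not tested. The control diet of 4 cows contained methionine at 1.9% of metabolizable protein, and the methionine-rich diet of the other 4 cows contained 2.4% with the same basal ration. The submitters' tissue label calls the embryos IVF embryos, whereas the study's methods describe blastocysts flushed from superovulated and inseminated cows, and this difference could not be settled from the files. A pool is named here by diet, cow and pool number, so that C1.1 is the first pool of control cow 1. As in any bulk sample, fewer cells of a type and less RNA per cell cannot be told apart.

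The total count ranged from 5624126 to 7826542 in 15 pools (median 7257007), and was 1745048 in pool C3.2, which the study did not analyze because few of its reads lay on annotated exons. That pool takes no part in the diet comparison and is described at the end. A floor of 3 counts corresponded to between 0.383 and 0.533 counts per 1000000 counts of the pool (CPM) in the 15 pools. Markers of blastocyst tissue were present. The trophectoderm list summed to between 3075 and 9708 CPM, and the list of inner cell mass and hypoblast markers to between 194.2 and 1952 CPM. However, CDX2 was low, and SOX17 and IFNT3 were at 0 in every pool. The 15 leukocyte markers summed to 2457 CPM in pool C2.1. Their sum had a median of 42.8 CPM over the control pools and ranged from 23.2 to 58.6 CPM in the methionine-rich pools.

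The nuclear subunits together took between 4.02% and 7.50% of all counts of a pool. Their summed level ranged from 40240 to 72561 CPM in the 7 control pools (median 55607) and from 46038 to 74984 CPM in the 8 methionine-rich pools (median 55354). The ranges overlapped almost completely, with C1.1 and M6.2 at the top and both pools of control cow 2, among them the pool with the leukocyte markers, at the bottom. Averaged over cows, the methionine-rich level was 1.04 times the control level. These are counts of amplified RNA, not corrected for transcript length, so levels of different genes are not compared with each other.

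The complexes differed in how far their summed level varied from pool to pool. Complex V was the steadiest, from 14989 to 23866 CPM, which is a range of 1.59-fold over the 15 pools. Complex I ranged from 9723 to 18000 CPM (1.85-fold) and complex III from 4204 to 9731 CPM (2.31-fold). Complex IV ranged from 7248 CPM in C2.2 to 25479 CPM in M6.2, which is 3.52-fold. Much of the complex IV sum came from COX7A2 and COX5B. COX7A2, the widely expressed form of subunit VIIa, ranged from 2088 CPM in C2.2 to 13512 CPM in M6.2. COX5B ranged from 3016 CPM in C2.2 to 9049 CPM in M7.1. Without COX7A2 the sum over all subunits ranged 1.61-fold, against 1.86-fold with it. The range of complex IV by itself without COX7A2 was not computed.

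In none of the complexes did the diets separate. The ratio of the methionine-rich to the control cows was 1.02 for complex I, 1.06 for complex III, 1.02 for cytochrome c, 1.06 for complex IV and 1.04 for complex V. The lowest and highest methionine-rich pools of complex I, 11800 and 18000 CPM, span nearly the same values as the control pools, 9723 and 17740 CPM. No test was made on the sums, since the genes were chosen with earlier results of these data known.

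**Figure D1:**
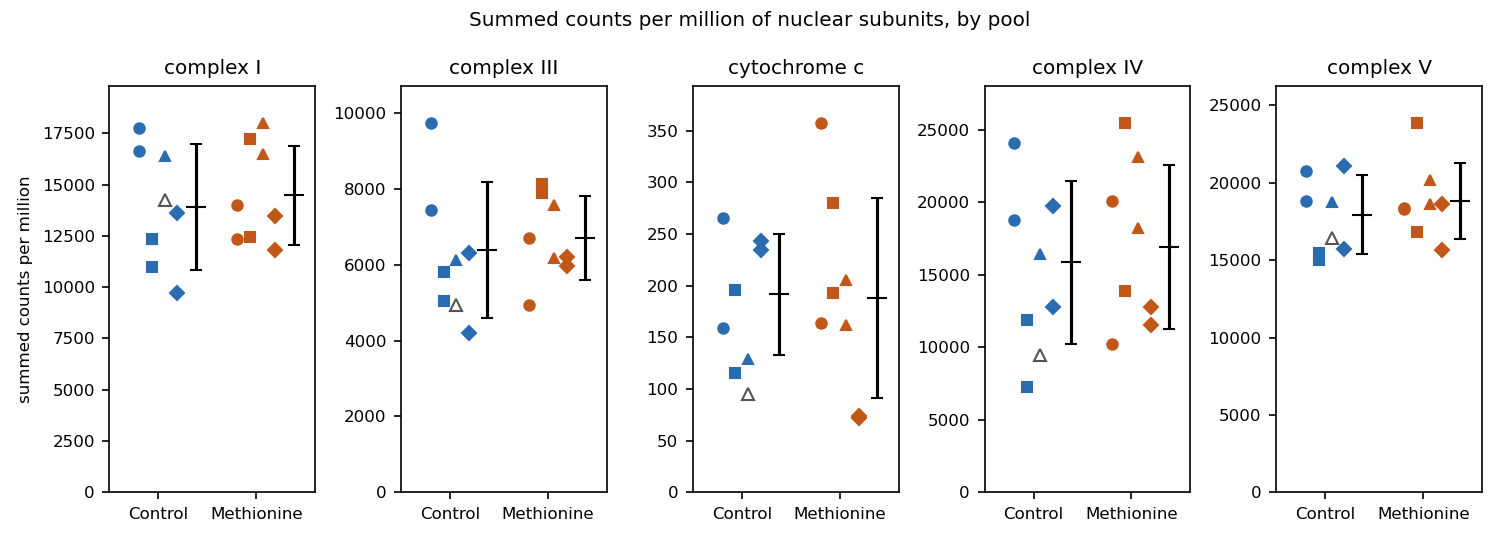
Each panel plots the summed level (CPM, axis from 0) of the nuclear subunits of a complex in every pool, blue for control and orange for methionine-rich, with a marker shape for each cow, an open triangle for pool C3.2, and the mean and SD of 7 and 8 pools in black. The diets overlap in every panel. Among the complexes, complex IV shows the widest spread, from 7248 to 25479 CPM (3.52-fold), while cytochrome c, a single gene, ranged 4.99-fold.

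Each gene was then compared between the diets, which asks whether maternal methionine changed the RNA of the respiratory machinery in the embryo. Of the 77 loci, 70 had a summed level of at least 15 CPM over the 15 pools and entered the test. None of the 70 passed a false discovery rate (FDR) of 0.10 in the exact test of edgeR, where 1.05% of the 10519 loci tested did. At an unadjusted p under 0.05 the exact test picked 1 of the 70, COX7A1, where it picked 8.54% of all loci. The quasi-likelihood test of edgeR called none of the 70 and 0.0% of all loci at the same FDR, and picked 1 of the 70 and 8.64% of all loci at an unadjusted p under 0.05.

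The estimated differences were small in most genes. The log2 fold change (methionine-rich over control) was above 0 in 38 genes, below 0 in 31 and 0.00 in UQCR10, with a median of 0.03, beside a median of -0.05 over all loci tested. It was under 0.5 in size in 68 of the 70 genes, and 69 lay within 2-fold, compared with 75.3% of all loci. Abundance differs between these sets: among loci with an average log2 level over 5, 98.3% of 2812 loci and 63 of 63 of these genes lay within 2-fold. Over the subunits of each complex, the median was 0.00 for complex I (16 above and 16 below 0), 0.20 for complex III (6 above, 2 below), 0.04 for complex IV (6 above, 5 below) and 0.04 for complex V (9 above, 6 below).

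The precision limits what these values exclude. In a limma voom fit in which the cow was a random effect, the 95% interval of the log2 fold change had a median half-width of 0.62, and lay wholly within a 2-fold difference in either direction for 52 of the 70 genes. For the other 18 genes a 2-fold difference remained inside the interval. The fit used a single correlation between pools of a cow for all loci, 0.0351, and so treated the pools almost as independent. Where the cows of a diet differ more than this allows, the interval is too narrow and the 52 may be too many.

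**Figure D2:**
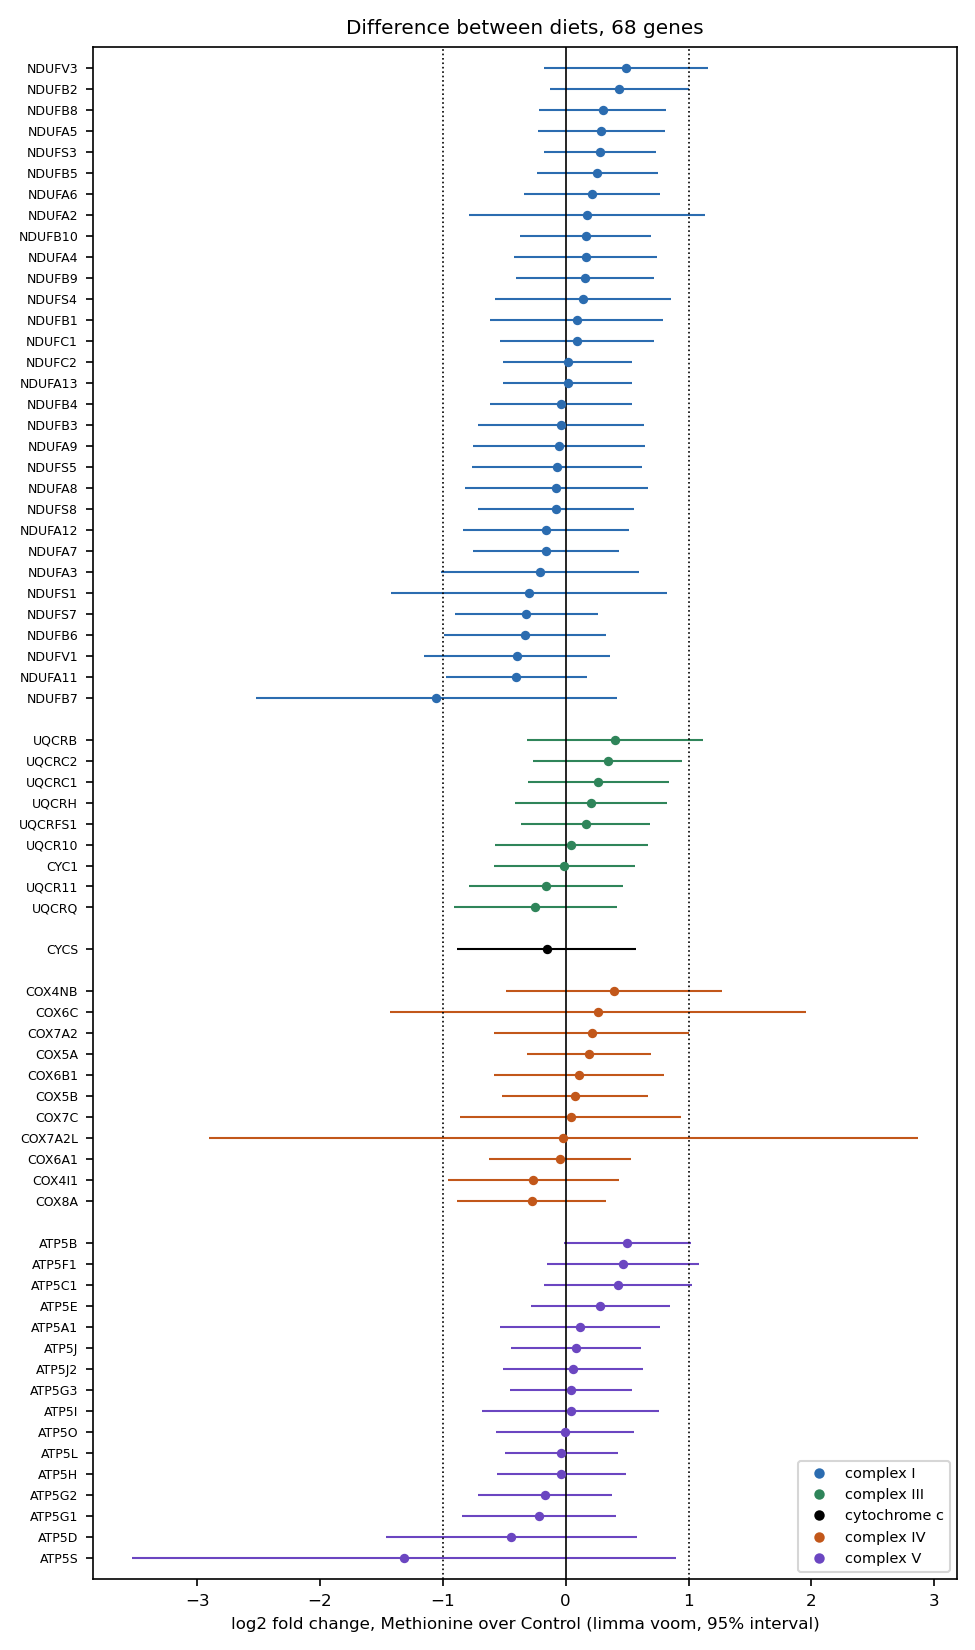
Points give the log2 fold change (methionine-rich over control) of 68 of the 70 tested genes in the limma voom fit, with 95% intervals, coloured by complex and sorted within it. Dotted lines mark a 2-fold difference; COX7A1 (-1.41, interval -3.94 to 1.11), which had 0 counts in all 8 methionine-rich pools, is among those not drawn, every interval drawn holds 0, and NDUFB7 (-1.05) and ATP5S (-1.32) are the only drawn points beyond 2-fold.

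Within complex I, the 3 genes with the smallest p were accessory subunits, which surround the core that carries the electrons. NDUFB2 ranged from 83.1 to 175 CPM in the control pools (median 142) and from 140 to 257 CPM in the methionine-rich pools (median 179). The lowest control pools were those of cow 2, and the groups overlapped. Its log2 fold change was 0.43 (exact test FDR 0.852; limma interval -0.13 to 1.0).

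NDUFV3, an accessory subunit of the NADH-oxidizing module, ranged from 25 to 125 CPM in the control pools (median 69.8) and from 59.6 to 147 CPM in the methionine-rich pools (median 91.3). Only C1.2 lay well below the rest. The log2 fold change was 0.47 (exact test FDR 0.878), and with pool C3.2 entered, where NDUFV3 reached 280.2 CPM, it turned to -0.32. NDUFA11, which helps hold the membrane arm together, was the reverse case, with 110 to 321 CPM in the control pools (median 179) and 89.8 to 226 CPM in the methionine-rich pools (median 149). Its log2 fold change was -0.41 (exact test FDR 0.893), and the cow means overlapped.

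The genes of complex I that took the most counts were NDUFA13, NDUFB1 and NDUFB3, all accessory subunits. NDUFA13 ranged from 2287 to 7033 CPM in the control pools (median 4318) and from 3423 to 6400 CPM in the methionine-rich pools (median 4361). NDUFB1 had medians of 1521 and 1447 CPM, and NDUFB3 had medians of 817 and 860 CPM. All 3 were lowest in control pool C4.2, and their medians differed little between diets.

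The core subunits of complex I, which hold the NADH site, the iron-sulfur clusters and the ubiquinone site, showed no common direction. Of the 5 reported here, 1 had a log2 fold change above 0 and 4 below, between -0.33 and 0.26. NDUFS3 ranged from 409 to 1140 CPM in the control pools (median 735) and from 668 to 1210 CPM in the methionine-rich pools (median 833). NDUFV1 ranged from 61.9 to 245 CPM in the control pools (median 183) and from 58.3 to 336 CPM in the methionine-rich pools (median 106). Both genes overlapped over most of their range. NDUFS1 was the lowest in counts of the 5 and varied 17.1-fold, from 2.16 CPM in M8.2 to 37.0 CPM in C4.2. The 25 accessory subunits divided into 13 above and 12 below 0, between -0.49 and 0.47.

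In complex III the smallest p belonged to UQCRB, the ubiquinone-binding protein, UQCRC2, a core protein, and UQCRQ, a small subunit. UQCRB ranged from 250.2 to 951 CPM in the control pools (median 677) and from 367 to 1514 CPM in the methionine-rich pools (median 766). Both pools of methionine-rich cow 6 lay above all others, at 1269 and 1514 CPM. The log2 fold change was 0.38 (exact test FDR 0.964).

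UQCRC2 had medians of 328 CPM in the control and 398 CPM in the methionine-rich pools and a log2 fold change of 0.32 (exact test FDR 0.974), and UQCRQ had medians of 212 and 170 CPM, with a log2 fold change of -0.29 (exact test FDR 0.995). Both overlapped widely between diets. UQCR11 and UQCRH, the hinge protein near cytochrome c1, took the most counts of the complex together with UQCRB. UQCR11 was highest in C1.1 (4303 CPM) and had medians of 1858 and 1940 CPM. UQCRH had medians of 2093 and 2184 CPM.

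All 4 catalytic and core subunits of complex III had a log2 fold change above 0, between 0.03 and 0.32, with none near the threshold, and in each the pools of the diets overlapped. CYC1, which encodes cytochrome c1, ranged from 142 to 376 CPM in the control pools (median 280) and from 180.0 to 495 CPM in the methionine-rich pools (median 219). The Rieske protein UQCRFS1 ranged from 63.0 to 102 CPM (median 82.2) and from 70.8 to 144 CPM (median 91.2). UQCRC1, the other core protein, had medians of 318 and 372 CPM. For CYC1 the medians stood in the opposite order to the estimated fold change. The 5 small subunits lay between -0.29 and 0.38.

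Cytochrome c, the small carrier between complexes III and IV, was measured by CYCS. It ranged from 115 to 265 CPM in the control pools (median 196) and from 71.7 to 357 CPM in the methionine-rich pools (median 178). The 2 pools of methionine-rich cow 8 were nearly equal and the lowest of all, at 71.7 and 73.9 CPM. The log2 fold change was -0.06 (exact test FDR 1), and its direction turned in several of the alternative fits.

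In complex IV, the subunits that took the most counts were COX7A2, COX5B and COX6A1. COX5B, a subunit on the matrix side, ranged from 3016 to 7362 CPM in the control pools (median 5731) and from 3730 to 9049 CPM in the methionine-rich pools (median 5456). COX6A1 had medians of 1521 and 1532 CPM. COX7A2 had medians of 6899 and 7028 CPM. All 3 were lowest in pool C2.2 and overlapped between diets.

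COX8A, a small nuclear subunit, ranged from 163 to 487 CPM in the control pools (median 335) and from 130 to 388 CPM in the methionine-rich pools (median 253), and its log2 fold change was -0.26 (exact test FDR 0.998). COX4NB, not a subunit, ranged from 30.4 to 190.0 CPM in the control pools (median 167) and from 63.2 to 332 CPM in the methionine-rich pools (median 161). Both pools of control cow 1 were low for COX4NB, at 55.7 and 30.4 CPM, while 49 and 41 of the 70 genes lay above their median in the same pools. Its log2 fold change was 0.38 (exact test FDR 0.989).

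COX7A1 (XLOC_007474), the form of subunit VIIa typical of heart and skeletal muscle, had the smallest p of the 70 genes and rested on a single library. Pool C2.1 held 128 counts (22.8 CPM), C3.1 held 1 count (0.13 CPM), and the other 5 control pools and all 8 methionine-rich pools held 0. The exact test FDR was 0.206 (quasi-likelihood FDR 0.323). It fell to 0.0737 when cow 1 was left out and to 0.0731 when cow 4 was left out, while without cow 2 or without pool C2.1 the gene no longer reached the filter on low counts. Over all fits that held the gene and gave an FDR, it ranged from 0.0731 to 0.993. Pool C2.1 is the pool with the leukocyte markers, of which 5 of 8 tested (LAPTM5, NKG7, TYROBP, LCP1 and CD53) passed the exact test as higher in control. Their part in the COX7A1 counts was not tested.

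Several subunits of complex IV exist in tissue-specific forms, and in the blastocyst pools nearly all counts fell on the widely expressed form of each. COX4I1 held between 99.7% and 100% of the counts of the COX4I pair in the 15 pools, with medians of 597 CPM in the control and 462 CPM in the methionine-rich pools. COX4I2, the form of lung and of low oxygen, reached 24 counts in C4.2 (3.09 CPM) and was at 0 in 13 of 15 pools. COX6A1 held at least 99.9% against COX6A2, the heart and muscle form, which was at 0 in 14 of 15 pools. COX6B1, with medians of 245 and 277 CPM, held at least 99.7% against COX6B2, the testis form, whose highest count was 6.

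COX7A2 held between 99.4% and 100% of its family, the lowest share being that of C2.1. COX7A1 reached 0.550% of the family there (95% Wilson interval 0.463% to 0.654%, counting error only). COX7A2L, a relative that takes part in joining respiratory complexes, ranged from 0 to 14 CPM and was at 0 in 4 of the 15 pools. NDUFA4 held at least 99.98% against NDUFA4L2, the hypoxia-responsive form, of which a single count was found. NDUFA4 itself had medians of 908 and 880 CPM. None of the loci described here carried the name COX8B or COX7B.

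In complex V, the smallest p belonged to ATP5B (XLOC_017049), the catalytic beta subunit of the F1 head. It ranged from 807 CPM in C2.1, the pool with the leukocyte markers, to 2587 CPM in C4.2 in the control pools (median 1492) and from 1016 CPM in M7.1 to 3218 CPM in M5.1 in the methionine-rich pools (median 2016). Single pools of the diets overlapped. The means over cows did not overlap: the 4 control cows lay between 1251 and 1778 CPM and the 4 methionine-rich cows between 1922 and 2343 CPM.

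This ordering of the cows gave an exact two-sided permutation p of 0.0286 over the 70 assignments of cows to diets, which is the smallest p the design allows. It was 1 of the 70 genes with cow means that did not overlap and were higher in the methionine-rich group, 1.43%, beside 1.16% of all loci. In the opposite direction there was none of the 70, beside 1.05% of all loci. The log2 fold change of ATP5B was 0.50, with an exact test FDR of 0.764, a quasi-likelihood FDR of 0.617 and a limma interval of -0.02 to 1.02. Over all fits its FDR ranged from 0.609 to 1. Without pool C2.1 the log2 fold change was 0.43 and the cow means still did not overlap. With pool C3.2 entered, where ATP5B reached 4398 CPM, the cow means overlapped and the log2 fold change turned to -0.11.

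The partners of ATP5B in the F1 head did not share this order. ATP5A1, the alpha subunit that alternates with beta in the head, had medians of 1395 CPM in the control and 2107 CPM in the methionine-rich pools but its highest value in control pool C4.2 (4827 CPM), a single blastocyst. ATP5C1, the gamma subunit that turns inside the head, ranged from 192 to 686 CPM in the control pools (median 304) and from 346 to 567 CPM in the methionine-rich pools (median 492), and its log2 fold change was 0.37 (exact test FDR 0.942). ATP5F1, of the stalk that holds the head still, had medians of 80.7 and 138 CPM and a log2 fold change of 0.44 (exact test FDR 0.895). In all 3 genes C4.2 was the highest of the 15 pools and the cow means overlapped. By role, the F1 subunits lay between -0.39 and 0.50 on the log2 fold change scale (3 above and 2 below 0), the 4 stalk subunits between -0.05 and 0.44, the 3 small membrane subunits between -0.04 and 0.08, and the 3 ring genes between -0.18 and 0.06. ATP5J2, a small membrane subunit, had medians of 1538 and 1678 CPM. ATP5S was close to the floor, from 0.13 to 5.91 CPM in the control pools and from 0 to 4.96 CPM in the methionine-rich pools, and its log2 fold change was -0.83 (exact test FDR 0.998).

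The rotating ring of complex V is built from subunit c, and the genes ATP5G1, ATP5G2 and ATP5G3 encode the same mature protein. All 3 were used at once in every pool, which sets this family apart from those of complex IV. ATP5G1 had medians of 2274 CPM in the control and 2007 CPM in the methionine-rich pools, ATP5G2 of 368 and 303 CPM, and ATP5G3 of 2861 and 3011 CPM. As a share of the family's counts, ATP5G3 held between 42.8% and 71.6%, ATP5G1 between 21.9% and 52.5%, and ATP5G2 between 4.06% and 8.79% over the 15 pools. Transcript lengths were not at hand, so the shares are of counts and not of molecules.

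The balance between ATP5G1 and ATP5G3 moved from cow to cow more than between diets. In the 7 control pools the ATP5G1 share was 41.0% ± 6.18 (SD), and in the 8 methionine-rich pools it was 37.8% ± 11.3. The extremes were both methionine-rich cows, with shares of 27.7% and 21.9% in the pools of cow 5 and of 52.5% and 50.3% in the pools of cow 8. The listed RNA quality number was also lower in both pools of cow 5 than in both pools of cow 8. In M7.1, the pool with the lowest quality number, the share was 38.6%. The part of RNA quality in these shares was not tested. Counting error is small beside the differences between cows, the 95% Wilson interval of the lowest share being 21.5% to 22.4%. Between cows, the difference of the methionine-rich from the control mean was -4.24 percentage points, with an SD between cows of 9.20 points.

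**Figure D3:**
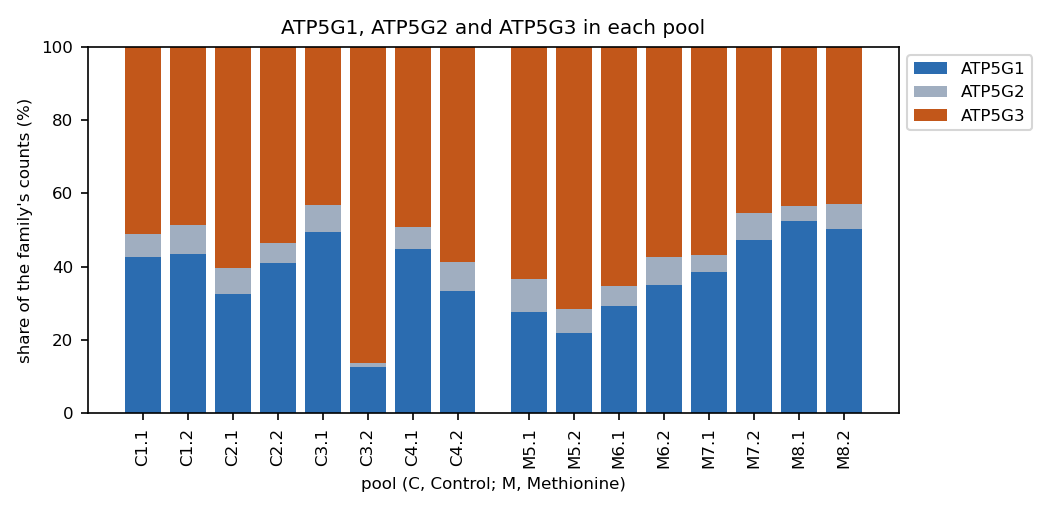
Bars give the share (%) of the counts of the ATP5G family held by ATP5G1, ATP5G2 and ATP5G3 in each of the 16 pools, control pools on the left. The pools of cow 5 hold the least ATP5G1 of the 15 pools and those of cow 8 the most, and in pool C3.2 ATP5G3 holds 86.4%.

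The number of oxidative phosphorylation genes above their usual level differed from pool to pool. In M6.2, 52 of the 70 genes lay above their own median of the 15 pools, and in C1.1 49 did, where 50.6% and 44.4% of all loci lay above theirs. In M7.1 it was 44, against 35.1% of all loci. M6.2 was the highest of the 15 pools for 14 genes and C1.1 for 11, where they were the highest for 3.75% and 4.14% of all loci. At the low end, 14 of the 70 genes were above their median in C2.1, the pool with the leukocyte markers, and 19 in C2.2, against 41.6% and 57.8% of all loci. In M5.1 it was 26, against 66.7%. C4.1 (26 genes, 42.8% of loci) and M8.2 (33 genes, 39.4% of loci) stood closer to the background. Pool C4.2, a single blastocyst, was the lowest pool for 17 genes, among them NDUFA13, UQCRB and COX7C, beside 9.93% of all loci. It was the highest for 9, among them ATP5A1, ATP5C1 and COX4I1, which is no more than the 13% of all loci that were highest there. No test was made on these counts. The shares of all loci were not matched for abundance: 63 of the 70 genes, but only 2812 of 10519 loci, had an average log2 level over 5.

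A few genes did not follow the rest of their pool, and these were picked after their values were seen. NDUFB7, an accessory subunit of complex I, ranged from 5.15 CPM in M8.1 to 139 CPM in M8.2, which are pools of the same cow, M8.2 being a single blastocyst. ATP5D, the delta subunit of the F1 head, ranged from 13.2 CPM in C2.1, the pool with the leukocyte markers, and in M8.1 to 145 CPM in M5.1. Both genes were above their median of the 15 pools in C1.1, C1.2, C3.1, C4.1, C4.2, M5.1 and M8.2. COX7C was 1660 CPM in M8.2 and at most 756 CPM in the other 14 pools.

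**Figure D4:**
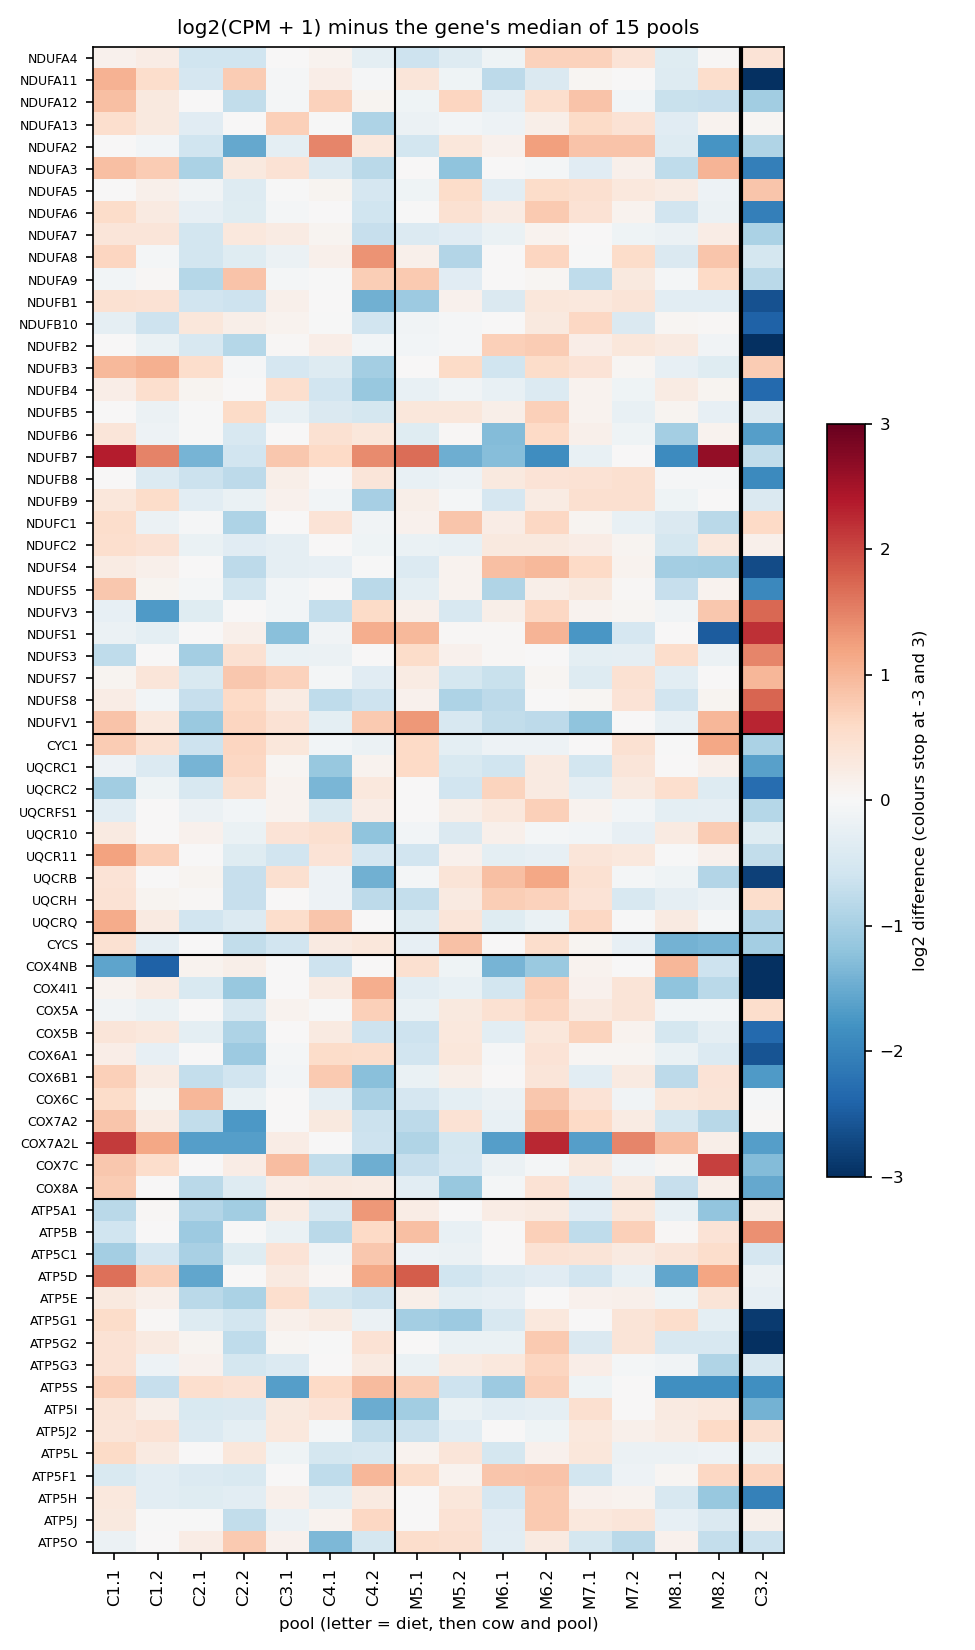
Colours give the log2(CPM + 1) of 68 genes in each pool minus the median of that gene over the 15 pools (red above, blue below), grouped by complex and with pool C3.2 at the right. M6.2 and C1.1 are mostly red and C2.1, the pool with the leukocyte markers, and C2.2 mostly blue, while NDUFB7 and ATP5D vary most from pool to pool among the well-measured genes.

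The spread between pools of the same diet was smaller than for most loci. The SD of log2(CPM + 1) within diet had a median of 0.52 over the 70 genes and of 1.0 over all loci. Much of the gap follows abundance. For loci with an average log2 level of 5 to 7 the medians were 0.54 for 11 of these genes and 0.74 for all loci, from 7 to 9 they were 0.50 and 0.60, and over 9 they were 0.50 and 0.50. UQCRFS1, the Rieske iron-sulfur protein of complex III, was the steadiest of the 70 (SD 0.29), followed by NDUFA5 (0.31), NDUFC2 (0.32) and COX5A (0.33). The largest SD was that of NDUFB7 (1.51).

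Of the 77 loci, 7 did not reach the filter: NDUFA4L2, COX4I2, COX6A2, COX6B2, ATP5SL and both loci of NDUFV2. NDUFA4L2, COX6A2 and ATP5SL had no more than 0.17, 1.22 and 1.07 CPM in any of the 15 pools. NDUFV2, a core iron-sulfur subunit without which complex I does not function, was listed at XLOC_012390 and XLOC_012222, with at most 0.66 and 0.17 CPM. COX6C, an obligatory subunit of complex IV, had only 0.13 to 3.38 CPM. Whether reads of these genes were assigned to near-identical copies in the genome was not tested. None of the 77 loci carried the names NDUFA1, NDUFA10, NDUFB11, NDUFS6, COX7B or COX8B. Of 26 names searched for the subunits encoded by mitochondrial DNA, none was found. Whether reads of these genes were counted under other names was not tested.

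Genes that work next to the respiratory chain gave no call either. Some of them had larger estimated differences, with log2 fold changes of 2.72 for NDUFAF1, -1.43 for LYRM7 and -3.22 for PPARGC1A. Among 33 assembly factors tested, 16 had a log2 fold change above 0 and 17 below, and none passed an FDR of 0.10. LYRM7, which handles the Rieske protein of complex III, had the smallest p (35.2 ± 29.8 CPM in the control and 13 ± 9.95 CPM in the methionine-rich pools, exact test FDR 0.546). NDUFAF1 followed (0.77 ± 0.99 and 5.06 ± 12.5 CPM, exact test FDR 0.648). LYRM7 was 99.4 CPM in C4.2 and at most 36.2 CPM in the other pools. NDUFAF1 was 35.9 CPM in M5.2 and at most 2.45 CPM in the other pools. Of the complex II genes, SDHB had 115 ± 33.6 and 108 ± 22.8 CPM and SDHC had 1283 ± 455 and 1048 ± 401 CPM (SD, n = 7 and 8), and neither passed.

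Among 19 regulators of mitochondrial biogenesis tested, 9 were above 0 and 10 below, and none passed. The smallest p belonged to MTERF, a mitochondrial transcription termination factor, with 10.4 ± 15.3 and 1.9 ± 2.60 CPM (exact test FDR 0.270), and to PPARGC1A, the coactivator PGC-1alpha, with 9.85 ± 19.5 and 1.27 ± 2.20 CPM (exact test FDR 0.613), where a single pool, C1.2, reached 52.5 CPM. Pyruvate dehydrogenase and the citric acid cycle had 11 genes above and 6 below 0 of 17 tested, with the smallest p for IDH3A (exact test FDR 0.968). The 5 carriers and porins, led by VDAC1 and VDAC2 (exact test FDR 0.968 and 1), and the 3 further subunits and inhibitor of the ATP synthase, led by ATPIF1 and C21H14orf2 (exact test FDR 1 for both), did not pass either.

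Pool C3.2, kept out of the comparison, lay above the 15 other pools for some genes of the chain and below them for others. Of the 70 genes, 9 (12.9%) lay above all 15 other pools and 29 (41.4%) below, beside 9.91% and 35.2% of all loci. Among loci with an average log2 level over 5, the shares were 12.7% and 46% of 63 genes, beside 13.4% and 55.0% of all loci. By these counts the genes stood near the background, but they were not spread evenly over the roles.

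The 5 core subunits of complex I reported here, from the part that carries NADH oxidation, the iron-sulfur clusters and the ubiquinone site, all lay above the 15 other pools. NDUFV1, which binds NADH, had 666 CPM in C3.2 against at most 336 CPM elsewhere. NDUFS1 had 80.8 CPM against at most 37.0, and NDUFS3 had 2278 against at most 1210 CPM. NDUFS8 had 281 CPM against at most 128. For NDUFS7, 150 CPM stood against at most 132 CPM, and its counting interval (132 to 169 CPM, exact Poisson) reached that value. The other pool of the same cow, C3.1, was not raised, with for instance 183 CPM of NDUFV1 and 714 CPM of NDUFS3.

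Of the 25 accessory subunits of complex I, 13 lay below all other pools in C3.2 and 2, NDUFV3 and NDUFA5, above. Over all loci with an average log2 level over 5, the shares were 55.0% below and 13.4% above, so these counts stood near the background. NDUFB2 had 3.44 CPM there against at least 83.1 CPM elsewhere, and NDUFA11 had 5.73 CPM against at least 89.8 CPM. The 4 catalytic and core subunits of complex III (CYC1, UQCRFS1, UQCRC1 and UQCRC2) were all below. So were 5 of 11 subunits of complex IV, again near the background, including COX5B with 1128 CPM against at least 3016 CPM. In complex V, ATP5B was above (4398 CPM against at most 3218), while ATP5G1 and ATP5G2 were below and ATP5G3 was not, so that ATP5G3 held 86.4% of the family. The division into roles was examined after the values of C3.2 had been seen, and a single pool gives no replicate. The leukocyte markers summed to 206.3 CPM in C3.2, of which PTPRC alone held 159 CPM. The part of the low share of exonic reads, or of the PTPRC level, in the values of C3.2 was not tested.

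**Figure D5:**
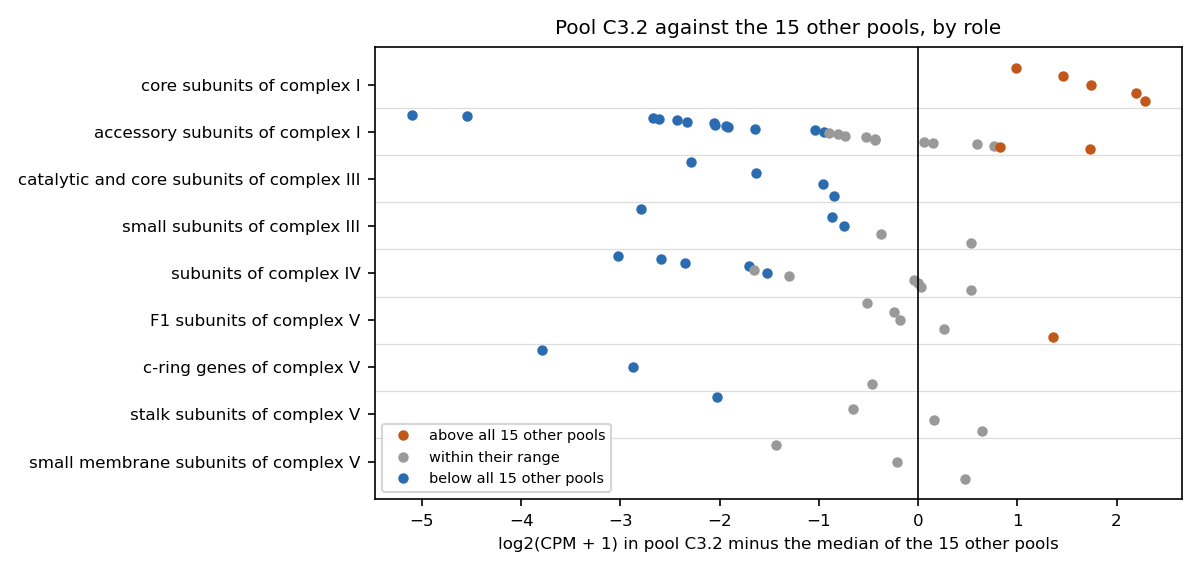
Each point is a gene, placed by its log2(CPM + 1) in pool C3.2 minus the median of the 15 other pools, in rows by role, and coloured by whether C3.2 lay above, within or below the range of those pools. The 5 core subunits of complex I are all above and the 4 catalytic and core subunits of complex III all below.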

How the data were processed

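The authors mapped reads of amplified RNA to the bovine genome bosTau7, assembled transcripts and counted reads per gene; the submitters' processing notes name TopHat2 2.0.4, Cufflinks 2.0.2 and HTSeq. Raw counts were deposited, with a separate table for each pool. Amplification starts at the poly(A) tail, which favours the 3' end of transcripts.

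The tables list 22552 rows for 22358 loci, and each locus was entered once. CPM were computed from the total count of the pool. Following the study's methods, loci with a summed CPM of at least 15 over 15 pools were compared between diets with the exact test of edgeR 4.0.16 (R 4.3.3; TMM, common and tagwise dispersions, Benjamini-Hochberg adjustment over all 10519 loci), with calls at an FDR under 0.10. The common biological coefficient of variation was 1.07. The pools of a cow are not independent, so cow means were also compared by exact permutation. Alternatives used the quasi-likelihood test of edgeR, DESeq2 1.42.0, limma 3.58.1 voom with the cow as random effect, other normalizations and filters, all 16 pools, pool C2.1 left out, pools summed by cow, the pool number as a block, and each cow left out. The fit of all 16 pools with the quasi-likelihood test was chosen after seeing the data. The code that fitted the diet comparison was run on simulated counts with known changes. Those counts varied less between pools than these data and held no cow effect. The remaining code was not tested in this way. Counts of every pair of pools differed beyond sampling noise (smallest chi-square per degree of freedom 64.4).

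Genes named with values are those past the FDR in any fit, the 3 with the smallest p and the 3 with the highest mean CPM of each complex, members of isoform families, genes whose cow means do not overlap, genes under the filter, genes listed at several loci and names that are not subunits. For the other gene lists they are the 2 genes with the smallest p. Some genes are not reported here. Other names were picked after their values were seen. The genes and lists were chosen with earlier results of these data known, so no test over a list was made. No genome, transcript lengths or sequences were used here.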

Additional observations from a re-analysis of the deposited data

Results flagged for a closer look

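In 12 of 82 sets of pools examined (each gene named by the rule, and each sum by complex, within a diet), the highest pool stood far from the other pools by Dixon's criterion, which chance meets in about 1 set of 20 for continuous values. That rate does not apply where all other pools are at 0 or hold a few counts, since a single count among zeros meets the criterion by construction. In 10 of these 12 sets the value was a single pool with more counts of a low gene. Among the control pools, COX7A1 was 22.8 CPM in C2.1, ATP5SL 1.07 CPM in C2.1, COX4I2 3.09 CPM in C4.2, NDUFA4L2 0.16 CPM in C4.1 and NDUFV2 (XLOC_012390) 0.66 CPM in C4.1. Among the methionine-rich pools, ATP5SL was 0.30 CPM in M7.2, COX4I2 1.01 CPM in M6.2, COX6A2 1.22 CPM in M8.2, COX6B2 0.91 CPM in M7.2 and NDUFV2 (XLOC_012390) 0.26 CPM in M7.1. Several of these lie at or under the floor of 3 counts.

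Both genes at higher levels belong to complex V and stood out in pool C4.2, a single blastocyst. ATP5A1 was 4827 CPM there against 952 to 2299 CPM in the 6 other control pools, and ATP5F1 was 217 CPM against 63.6 to 108 CPM.

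Pool C3.2 was outside the comparison and held genes above all other pools. Set against the 7 control pools, NDUFV1 was 666 CPM (61.9 to 245 CPM), NDUFS1 80.8 CPM (6.47 to 37.0 CPM), NDUFS3 2278 CPM (409 to 1140 CPM), NDUFS7 150 CPM (54.2 to 132 CPM) and NDUFS8 281 CPM (48.5 to 128 CPM). The remaining genes were NDUFV3 at 280.2 CPM (25 to 125 CPM), NDUFA5 at 767 CPM (302 to 482 CPM) and ATP5B at 4398 CPM (807 to 2587 CPM).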

How the results depend on the processing

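None of the genes passed an FDR of 0.10 in the 15 pools by the exact test, the quasi-likelihood test, DESeq2 or limma voom, in all 16 pools by the exact or the quasi-likelihood test, or without pool C2.1 by the exact test. The same held for the exact test with the other normalizations and filters and with the pools of each cow summed. With each cow left out the number ranged from 0 to 1, the single gene being COX7A1. A quasi-likelihood fit with a replicate block by pool number also gave 0. Over all loci, the calls at the same FDR numbered 110 in the exact test, 0 in the quasi-likelihood test, 69 in DESeq2, 0 in limma voom, 55 without a filter on low counts, 0 with at least 10 counts in every pool, 356 with all 16 pools, 64 without pool C2.1, and 62 to 153 with a cow left out. The cause of these differences was not tested.

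The median log2 fold change of complex I was 0.00 and ranged from -0.10 to 0.20 with each cow left out, the highest being without cow 1. The log2 fold change of CYCS turned from -0.06 to 0.007 when the pools of each cow were summed, and ranged from -0.20 to 0.20 with each cow left out. With all 16 pools ATP5B turned from 0.50 to -0.11 and NDUFV3 from 0.47 to -0.32, in both the exact and the quasi-likelihood test, since both genes were high in C3.2. The number of genes with cow means that did not overlap and were higher in the methionine-rich group fell from 1 to 0 with all 16 pools, where ATP5G2's share of its family was 0.28 percentage points higher in the methionine-rich cows instead of 0.50 points lower (difference -0.50). The remaining 106 values of counts, medians, sums and shares outside the fits that leave out a cow, and 160 log2 fold changes of single genes, kept their direction or stayed within the spread between cows. The limma voom intervals had a median half-width of 0.62 on the log2 scale, from 0.46 for ATP5L to 2.89 for COX7A2L. This is not a limit of detection, since calls rested on the FDR over all loci. Differences larger than 0.62 could also go uncalled. Genes near the floor of 3 counts carry little information on either diet. The Wilson and Poisson intervals cover counting error only.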
